A study of Homo sapiens with 5 samples.

Results

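Ribosomal proteins of the cytosol are the protein component of the ribosome, and the mRNAs of 42 of them are described here in MDA-MB-231, a human cell line established from triple-negative breast cancer. The 42 genes were chosen by name, as a list of cytosolic ribosomal proteins, from a table that held 10596 genes, and they comprise 25 proteins of the large subunit and 17 of the small subunit. Where a gene had several transcripts, the one with the largest mean over all libraries stands for it. There were 5 libraries of RNA primed with oligo-dT, each the only library of its group. Cells received an siRNA against SET (siSET), an siRNA against CIP2A (siCIP2A) or a control siRNA (siNT) for 48 hours, or OP449 at 1 µM or PBS for 12 hours. SET and CIP2A are endogenous inhibitors of the phosphatase PP2A, and the series describes OP449 as an antagonist of SET. The labels name no second culture and no siRNA sequence. The transcripts of SET and CIP2A were not analysed here, so silencing could not be checked.

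A ribosome carries 1 copy of nearly every ribosomal protein, and cells make these proteins in matched amounts. Their mRNAs are among the most abundant of a growing cell. Most begin with a cytosine followed by a run of pyrimidines, the terminal oligopyrimidine (TOP) start, through which mTOR signalling sets how strongly they are translated. Translation is not seen in RNA levels. Ribosomal protein genes have also left many processed pseudogenes, near copies of the mRNA elsewhere in the genome, which share short reads with the parent gene.

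The starts of the mRNAs show the feature that the family shares beyond its function. RefSeq promoter entries on GRCh38.p14 were found for 37 members, not for RPL5, RPL23, RPL23A, RPS2 or RPS15A. In 29 of the 37 (78.4%), a run of at least 5 pyrimidines beginning with C opened within 3 bases of an annotated start, against 14.0% of all 27305 genes with such an entry. In 57.8% of the members' promoters and 4.07% of all promoters the first base itself was a C that opened at least 5 pyrimidines. Each window below has 5 bases before the annotated start and 20 from it on, read on the gene's strand, with the run in capitals. The first 6 are members with more than 1000 scaled counts in each library, RPL21 and RPS27 are the members with the fewest reads, and RPL36AL and RPS29 are shown because no run of theirs met this rule. In RPL36AL the pyrimidines open further before the annotated start, and 3 of them lie from the first base on.
RPS3 (chr11:75399513-75399537, plus strand): caCTTCCTTTCCTTTCagcggagcg
RPL11 (chr1:23691801-23691825, plus strand): gctttCTCTTCCTgctctccatcat
RPS19 (chr19:41860250-41860274, plus strand): tcgttCCCTTTCCCCTggctggcag
RPLP1 (chr15:69452813-69452837, plus strand): gagagCCCCTTTCCTCagctgccgc
RPLP0 (chr12:120201092-120201116, minus strand): gaggCCCTTCTCTCgccaggcgtcc
FAU (chr11:65122115-65122139, minus strand): tcttCCTCTTTCTCgactccatctt
RPL21 (chr13:27251553-27251577, plus strand): tctttCCTTTCggccggaaccgcca
RPS27 (chr1:153990757-153990781, plus strand): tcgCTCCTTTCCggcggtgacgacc
RPL36AL (chr14:49620607-49620631, minus strand): cctttcctgttaggcgagagctgcg
RPS29 (chr14:49598691-49598715, minus strand): gcagctggcagcggtggttgtttct
The other members without a run by this rule were RPL4, RPL6, RPL17, RPL27, RPS15 and RPS26. The E-box CACGTG, the preferred site of MYC with MAX and a palindrome that reads alike on both strands, occurred in the 300 bases around a start of 4 members (10.8%), against 8.77% of all genes. The 4 were RPL13A, RPL19, RPS19 and RPS28. A match is a string of letters and says nothing of binding.

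The second set of sequences shows how much of a member's coding sequence occurs elsewhere. Coding sequence of each gene was cut into every window of 36 bases and searched against all other GENCODE transcripts. A median of 33.5% of a member's windows had no exact copy in another gene, with 0% at the lowest and 93.6% at the highest. When up to 2 mismatches counted as a copy, 23 of the 42 members had no unique window left. Proteins of the mitochondrial ribosome, which share the role but have few pseudogenes, kept a median of 99.9% under the same rule, and none of 44 was without a unique window. The following stretches of 30 bases come from the middle of each coding sequence. Capitals mark bases that differ from the nearest copy, so a stretch in lower case alone has an exact copy.
RPL21, exact copy in 27 other genes: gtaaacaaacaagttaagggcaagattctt
RPS27, exact copy in 5 other genes: ccaggatgctataaaatcaccacggtcttt
RPS26, exact copy in 8 other genes: tttctgaagcgagcgtcttcgatgcctatg
RPS28, exact copy in 3 other genes: tgcgcgtggaattcatggacgacacgagcc
RPL41, exact copy in 6 other genes: agcgaatgcgcaggctgaagcgcaaaagaa
RPL5, exact copy in 10 other genes: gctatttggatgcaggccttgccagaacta
RPS19, exact copy in 3 other genes: gtggcgctggggttggctccatgaccaaga
RPL11, 3 mismatches to the nearest copy: aaggGtctaaaggtgcGgGagtatgagtta
All of the copies shown were annotated pseudogenes. The first 5 genes are the members with no exactly unique window, and RPL5, RPS19 and RPL11 are members with high levels.

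The deposited values are read counts multiplied by 1 factor per library, called scaled counts here, and whole reads could be recovered from them. The gene table held 3641329 reads in siSET, 5602224 in siCIP2A, 5250308 in siNT, 4762701 in OP449 and 5513739 in PBS. VIM, high in this line, stood at 15670 to 20867 scaled counts, and PGR was listed at 0. KRT8, KRT18 and KRT19 stood at 3436 to 4793, 2032 to 2965 and 4275 to 5998. ERBB2 stood at 1049 to 1179, and ESR1 was not among the genes listed. Of markers of other cells, PTPRC, a leukocyte gene, did not exceed 2.37 and PECAM1, an endothelial gene, did not exceed 9.02. COL1A1, a fibroblast gene, stood at 73.7 to 162. No difference below has a replicate check, and no test between conditions exists. Intervals in brackets are 95% exact intervals from the reads and cover counting error only. In bulk RNA, fewer cells with an mRNA and less of it per cell cannot be told apart.

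Most members were abundant in all 5 libraries. RPS3, a small-subunit protein at the mRNA entry site, had the most scaled counts before any correction for length, with 8822 in siSET, 8205 in siCIP2A, 8235 in siNT, 8818 in OP449 and 9249 in PBS. RPL11, which binds 5S rRNA together with RPL5, had 8107, 7123, 7420, 7680 and 7954 scaled counts in siSET, siCIP2A, siNT, OP449 and PBS. The libraries differed little for either gene, by at most 1.13-fold for RPS3 and 1.14-fold for RPL11 between the highest and the lowest.

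Per kilobase of coding sequence, and averaged over the 5 libraries, RPL11 led with 14339 scaled counts, before RPS19 with 14115 and RPLP1 with 14042. RPS19 is the gene first linked to Diamond-Blackfan anaemia, and RPLP1 is an acidic protein of the stalk that recruits translation factors. Before division by length RPS19 had 6145 scaled counts in siSET, 5909 in siCIP2A, 5977 in siNT, 6317 in OP449 and 6355 in PBS. Its highest library exceeded its lowest by 1.08-fold.

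At the other end were genes with almost no reads. RPL21, a large-subunit protein, had 0 reads in all 5 libraries. A gene with 0 reads may still have up to 3, or 3.31 scaled counts in siCIP2A, the deepest library, and 5.13 in siSET, the shallowest. RPS27, a zinc-binding protein of the small subunit, had 0 reads in siSET, 1 in siCIP2A, 1 in siNT, 0 in OP449 and 2 in PBS. RPS26, a protein beside the mRNA exit channel, had 39.3 scaled counts in siSET, 51.9 in siCIP2A, 45.0 in siNT, 47.7 in OP449 and 45.3 in PBS, from 23 to 47 reads. These 3 members fell short of the floor of 50 scaled counts on the mean of a pair of libraries, and the remaining 39 passed it in every comparison.

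**Figure D1:**
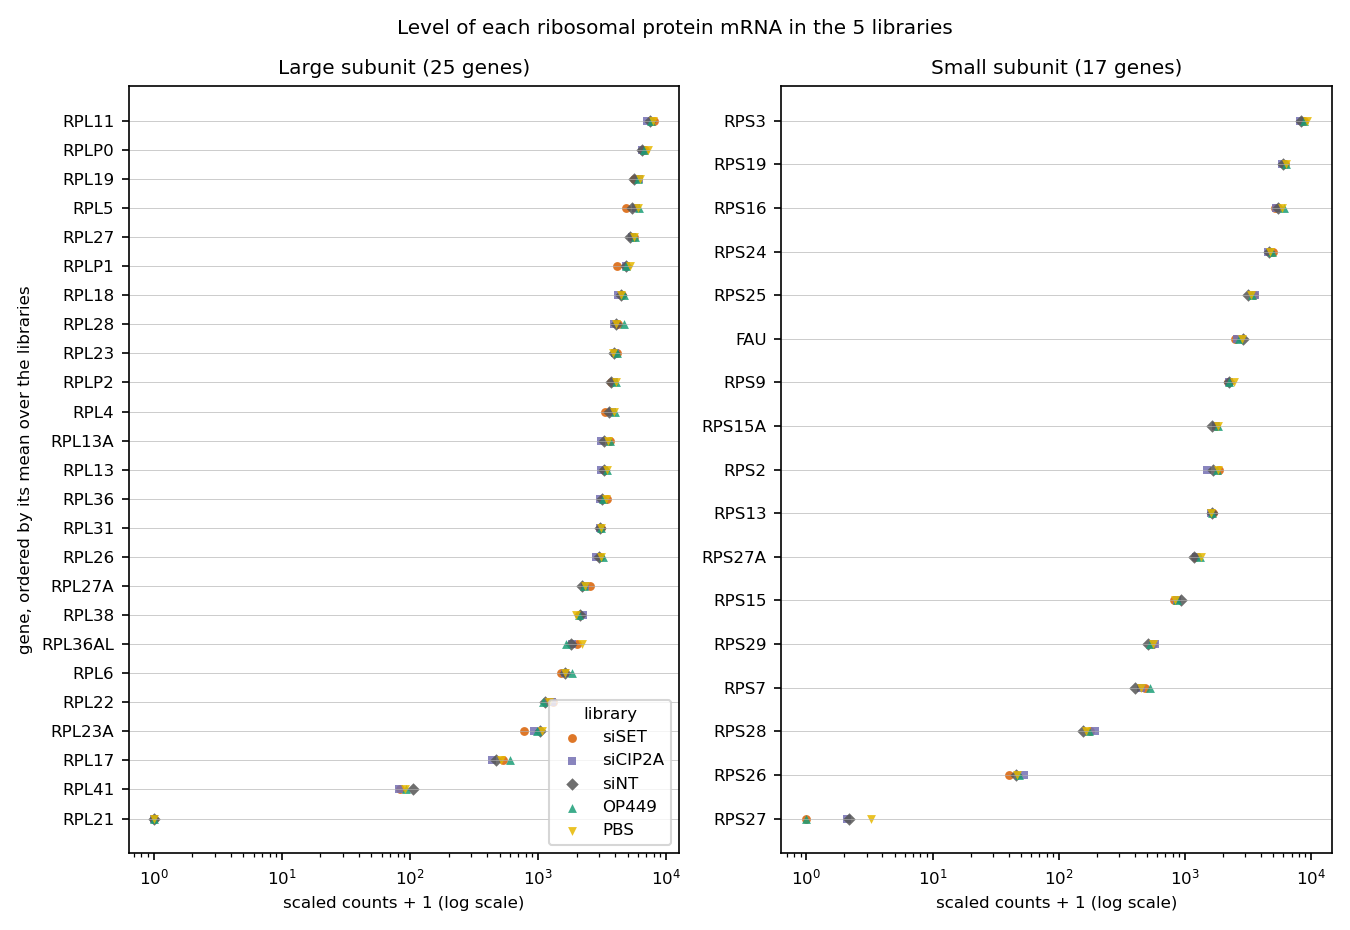
Scaled counts plus 1 of each gene in the 5 libraries, on a log scale, with the large subunit on the left and the small subunit on the right; each symbol is 1 library, and values are not divided by length. The libraries of a gene lie close together, while genes range from 0 in RPL21 to a mean of 8666 in RPS3.

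The low levels lay mostly where the coding sequence is shared with other genes. The 5 members with no exactly unique window of 36 bases were RPL21, RPL41, RPS26, RPS27 and RPS28, whose coding stretches are printed first above. Per kilobase of coding sequence they had mean levels of 0 in RPL21, 3.62 in RPS27, 133 in RPS26, 831 in RPS28 and 1201 in RPL41. All 5 were among the 7 lowest of the 42, and the others of these 7 were RPS7 at 792 and RPL17 at 924, with 6.40% and 6.96% of windows exactly unique. Across the 42 members, Spearman's rho between the level per kilobase and the percentage of exactly unique windows was 0.86. It was 0.68 when up to 2 mismatches counted as a copy, and 0.72 for windows of 50 bases with up to 2 mismatches. For the level not divided by length, rho was 0.73 with exact copies and 0.54 with up to 2 mismatches. Between the level per kilobase and the number of pseudogene entries it was -0.44. Counts are per transcript, while only coding sequence was searched for copies, so untranslated sequence was not examined. These values describe genes that share libraries and a sequence database and are given with no p.

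Uniqueness did not order the members completely. RPLP0, RPL5, RPL19 and RPLP1 had no unique window once 2 mismatches were allowed, yet stood at 7077, 6361, 10071 and 14042 scaled counts per kilobase. The 19 members with some unique window under that rule had a median of 10055 scaled counts per kilobase, and the 23 without had a median of 2673. RPL23A, with 91 pseudogene entries by name, stood at 2044 per kilobase, and RPL31, with 30, at 8215. The sources used here do not say how the authors treated reads with several positions, and the part of shared sequence in these levels was not tested. Levels of different members are therefore not compared further as amounts of mRNA.

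**Figure D2:**
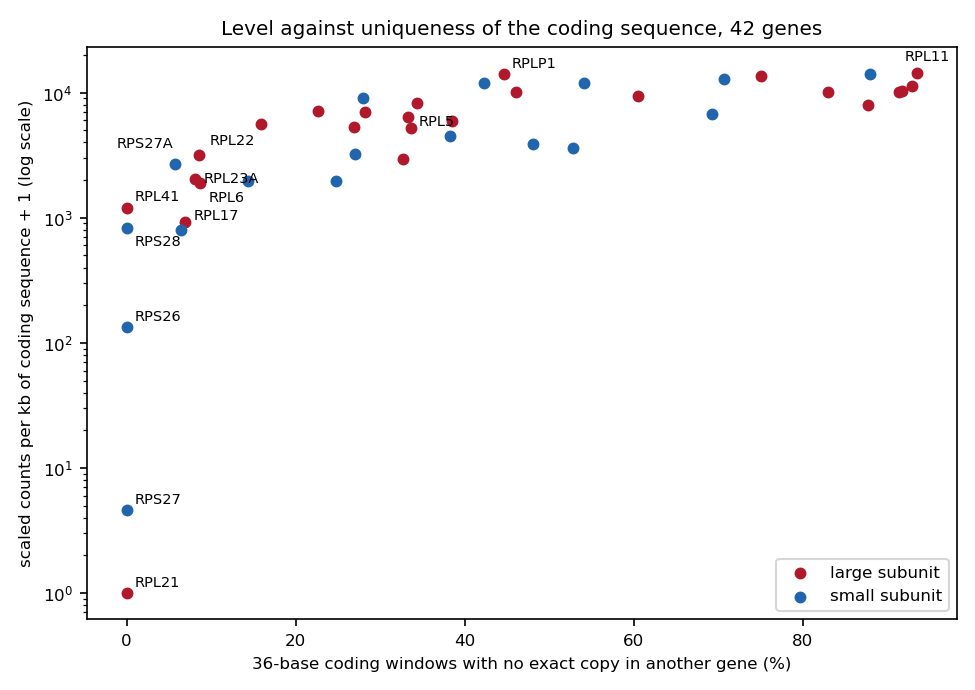
Mean scaled counts per kilobase of coding sequence plus 1 (log scale) against the percentage of 36-base coding windows with no exact copy in another gene; each point is 1 of 42 genes, red for the large and blue for the small subunit. The 5 genes at 0% include the 3 lowest, RPL21, RPS27 and RPS26, and RPL11 lies at 93.6% with the highest level per kilobase.

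Between libraries, by contrast, a member is set against itself. The ratio of its highest to its lowest library had a median of 1.14 over the 39 members past the floor, with 1.02 for RPL31 at the lowest and 1.40 for RPL17 at the highest. In 31 of the 39 members (79.5%) the highest library exceeded the lowest by less than 25%. The same held for 33.0% of all 6093 genes past the floor and for 48.1% of the 1621 genes with a mean of at least 1000 scaled counts. That share was not computed for genes matched to the members in level, nor for translation factors or mitochondrial ribosomal proteins. Evenness is therefore not shown to be particular to this family. RPL31, at the polypeptide exit tunnel, had 3095 scaled counts in siSET, 3054 in siCIP2A, 3042 in siNT, 3096 in OP449 and 3116 in PBS. RPS13, a protein of the small subunit, was nearly as even, with 1671, 1610, 1646, 1636 and 1615 scaled counts in siSET, siCIP2A, siNT, OP449 and PBS.

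Which library was highest differed between members. OP449 was the highest library for 15 of the 39 members and PBS for 10, while siSET was highest for 7, siCIP2A for 4 and siNT for 3. The lowest library was siCIP2A for 14 members, siNT for 11 and siSET for 10, and OP449 and PBS for 2 each. The highest and lowest library were not counted over all genes, so these counts stand without a background.

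**Figure D3:**
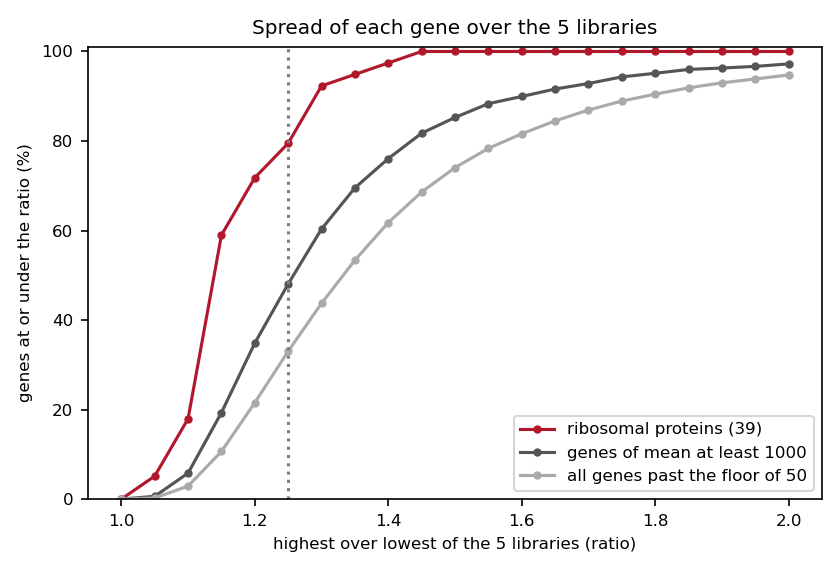
Percentage of genes whose ratio of highest to lowest library is at or under the value on the horizontal axis, for the 39 ribosomal protein genes past the floor, for genes with a mean of at least 1000 scaled counts and for all genes past the floor. Where the highest library exceeds the lowest by 25% (dotted line) the curves stand at 79.5%, 48.1% and 33.0%.

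The first comparison set siSET against siNT. The members as a group stayed near equality: 26 of 39 were higher in siSET and 13 lower, with a median log2 fold of 0.04, against 0.01 for all genes past the floor. Reads summed over the members gave a log2 ratio of 0.03 [0.01 to 0.04]. A gene was counted as higher where it was at least 25% above its control and as lower where it was at least 20% below, the same distance on the log scale. By that line 0 members were higher in siSET and 2 lower, where 11.9% of all genes were higher and 12.9% lower. Among genes with a mean of at least 1000 scaled counts, those shares were 6.06% and 8.97%. At 2-fold, 0 members were higher or lower, where 0.394% of all genes were higher and 0.789% lower. Log2 folds of the members had an SD of 0.15, against 0.25 for genes with a mean of at least 1000.

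RPL23A, which lies at the exit tunnel where the signal recognition particle docks, was the lowest member in siSET. It had 780 scaled counts in siSET, 929 in siCIP2A, 1027 in siNT, 982 in OP449 and 1066 in PBS, so siSET lay below the other libraries. Its log2 fold against siNT was -0.40 [-0.56 to -0.23], from 456 and 867 reads. On hg19 its transcript lies on the plus strand of chromosome 17 from 27047000 to 27051373. RPL41, a very short peptide, had 82.1 scaled counts in siSET, 81.7 in siCIP2A, 104 in siNT, 91.5 in OP449 and 90.7 in PBS. Its log2 fold in siSET was -0.34, but the counting interval [-0.88 to 0.18] includes 0.

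RPLP1 was short of the 20% line in siSET, at 4111 scaled counts, against 4886 in siCIP2A, 4872 in siNT, 4894 in OP449 and 5250 in PBS. Its log2 fold against siNT was -0.25 [-0.32 to -0.17]. The other stalk proteins were not low in siSET: RPLP0 stood at 0.08 [0.02 to 0.14] and RPLP2 at 0.02 [-0.06 to 0.10]. FAU, a fusion of a ubiquitin-like protein with a small-subunit protein, had 2477 scaled counts in siSET, 2602 in siCIP2A, 2892 in siNT, 2680 in OP449 and 2833 in PBS. Its log2 fold was -0.22 [-0.32 to -0.13] in siSET and -0.15 [-0.23 to -0.07] in siCIP2A, both against siNT.

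RPL5 and RPL11, which bind MDM2 together with 5S rRNA when ribosome assembly is disturbed, lay on opposite sides of equality in siSET. RPL5 had 4860 scaled counts in siSET, 5829 in siCIP2A, 5457 in siNT, 6174 in OP449 and 6017 in PBS, with a log2 fold of -0.17 [-0.24 to -0.10] in siSET. RPL11 stood at 0.13 [0.07 to 0.18]. The reverse held in siCIP2A, where RPL5 stood at 0.10 [0.04 to 0.15] and RPL11 at -0.06 [-0.11 to -0.01] against the same siNT library. None of these differences was past the 25% or 20% line.

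The members highest in siSET were RPS7, RPL27A and RPL22. RPS7, a small-subunit protein that also binds MDM2, had 484 scaled counts in siSET, 448 in siCIP2A, 403 in siNT, 523 in OP449 and 448 in PBS, with a log2 fold of 0.26 [0.03 to 0.50]. RPL27A, of the large subunit, had 2525, 2335, 2206, 2301 and 2314 scaled counts in siSET, siCIP2A, siNT, OP449 and PBS, with a log2 fold of 0.20 [0.10 to 0.29]. RPL22, known for its part in T cell development in mice, had 1300 scaled counts in siSET, 1292 in siCIP2A, 1139 in siNT, 1098 in OP449 and 1210 in PBS. It stood at 0.19 [0.05 to 0.33] in siSET, at 0.18 [0.06 to 0.31] in siCIP2A and at -0.14 [-0.27 to -0.01] in OP449. Small-subunit members had a median log2 fold of 0.10 in siSET and large-subunit members 0.02. Other genes with coding sequences of up to 600 bases, the length of most members, had a median of 0.06.

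The siCIP2A library was compared with the same siNT library, so siNT enters both comparisons. Of the 39 members, 20 were higher in siCIP2A and 19 lower, with a median log2 fold of 0.002, against 0.01 for all genes past the floor. Summed reads gave 0.005 [-0.008 to 0.017]. By the same line 1 member was higher and 1 lower, where 11.9% of all genes were higher and 10.1% lower, and 6.37% and 7.73% among genes with a mean of at least 1000. At 2-fold the members numbered 0, where 0.475% of all genes were higher and 0.639% lower.

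Both members past that line had few reads. RPS28, one of the shortest proteins of the small subunit, had 174 scaled counts in siSET, 193 in siCIP2A, 154 in siNT, 174 in OP449 and 164 in PBS. Its log2 fold in siCIP2A was 0.32 [-0.01 to 0.67], from 175 and 130 reads, and the interval reaches 0. RPL41 stood at -0.35 [-0.82 to 0.11], from 74 and 88 reads. With a pseudocount of 10 in place of 1, 0 members were past the line in siCIP2A in either direction.

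Smaller differences in siCIP2A rested on more reads. RPS25, needed for translation from some viral internal entry sites, had 3521 scaled counts in siSET, 3573 in siCIP2A, 3154 in siNT, 3386 in OP449 and 3339 in PBS. It stood at 0.18 [0.11 to 0.25] in siCIP2A and 0.16 [0.08 to 0.24] in siSET. RPS29, a zinc-binding protein of the small subunit, had 553, 581, 507, 531 and 553 scaled counts in siSET, siCIP2A, siNT, OP449 and PBS, and a log2 fold of 0.20 [0.01 to 0.38] in siCIP2A. RPS2, a substrate of the methyltransferase PRMT3, had 1858 scaled counts in siSET, 1502 in siCIP2A, 1676 in siNT, 1798 in OP449 and 1824 in PBS. It was lower in siCIP2A, at -0.16 [-0.27 to -0.05], and higher in siSET, at 0.15 [0.03 to 0.26].

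OP449 was compared with PBS after 12 hours. The members again stayed near equality, with 22 of 39 higher in OP449, 17 lower and a median log2 fold of 0.02, the same as for all genes past the floor (0.02). Summed reads gave -0.005 [-0.017 to 0.008]. By the 25% and 20% line, 0 members were higher and 1 lower, where 9.92% of all genes were higher and 8.15% lower. Among genes with a mean of at least 1000 scaled counts, 3.7% were higher and 5.92% lower. At 2-fold the members numbered 0, where 0.295% of all genes were higher and 0.295% lower.

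The member past the line was RPL36AL, an autosomal paralogue of the X-linked RPL36A. Its start is printed above. It had 1663 scaled counts in OP449 and 2198 in PBS, and 2005 in siSET, 1835 in siCIP2A and 1793 in siNT, so PBS was the highest library and OP449 the lowest. Its log2 fold in OP449 was -0.40 [-0.50 to -0.30], from 1291 and 1939 reads. Against the same PBS library siNT stood at -0.29 [-0.39 to -0.20]. The transcript lies on the minus strand of chromosome 14 from 50085407 to 50087349 on hg19, and 38.5% of its 36-base coding windows were exactly unique, but 0% once up to 2 mismatches counted as a copy.

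RPL28, RPL17 and RPS7 were the highest members in OP449. RPL28, a large-subunit protein that has no counterpart in budding yeast, had 4658 scaled counts in OP449 and 4031 in PBS, and 4196 in siSET, 3896 in siCIP2A and 4091 in siNT. OP449 lay above the other libraries, with a log2 fold of 0.21 [0.14 to 0.28] over 3616 and 3556 reads. RPL17, beside the exit tunnel, had 608 scaled counts in OP449 and 517 in PBS, and 527 in siSET, 433 in siCIP2A and 466 in siNT, with 0.23 [0.05 to 0.42] in OP449. RPS7 stood at 0.22 [0.02 to 0.42] in OP449, and RPL6 at 0.19 [0.08 to 0.30]. RPL23A stood at -0.12 [-0.26 to 0.02] in OP449.

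**Figure D4:**
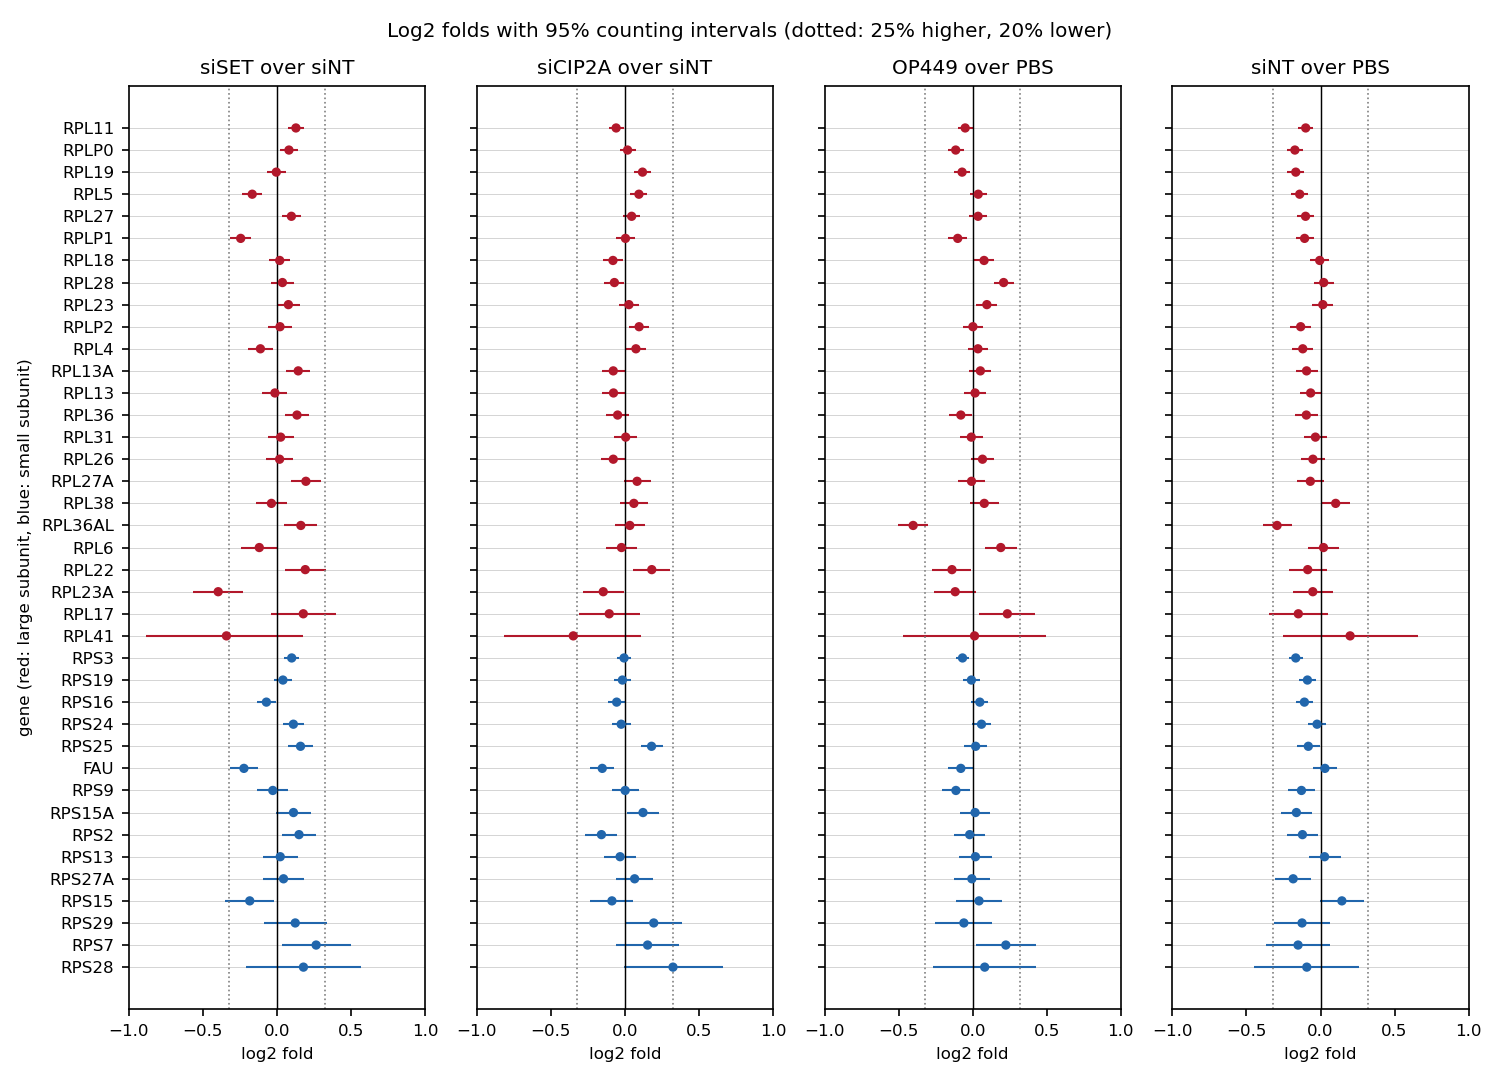
Log2 fold of each of the 39 genes past the floor in the 4 comparisons, with 95% counting intervals; red is the large and blue the small subunit, and dotted lines mark 25% higher and 20% lower. RPL23A in siSET and RPL36AL in OP449 lie past the line on the low side with intervals clear of 0, and most points of siNT over PBS lie left of 0.

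The 2 controls, which also enter the comparisons above, were set against each other. Against PBS, 31 of 39 members were lower in siNT and 8 higher, with a median log2 fold of -0.09, where all genes past the floor had a median of -0.004 with 3097 lower and 2979 higher. The interval lay below 0 for 19 members and above 0 for 1, RPL38. Members have many reads and narrow intervals, with a median half-width of 0.08. The share of all genes with such intervals was not computed, so these 2 counts have no background. Summed reads gave -0.09 [-0.10 to -0.08]. By the 25% and 20% line, 0 members were higher or lower, where 8.29% of all genes were higher and 8.43% lower, and 4.75% and 4.5% among genes with a mean of at least 1000. At 2-fold the members again numbered 0, where 0.247% of all genes were higher and 0.148% lower. The median was -0.09 for the large and -0.11 for the small subunit. For other genes with coding sequences of up to 600 bases it was -0.03. Treatment and time both differ between siNT and PBS and cannot be told apart.

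The lowest members of siNT against PBS were RPL36AL, RPS27A and RPLP0. RPS27A, a fusion of ubiquitin with a small-subunit protein, had 1170 scaled counts in siNT and 1330 in PBS, and 1206 in siSET, 1225 in siCIP2A and 1324 in OP449. Its log2 fold was -0.18 [-0.31 to -0.06]. RPLP0, the base of the stalk, had 6423 scaled counts in siNT and 7242 in PBS, and 6793 in siSET, 6506 in siCIP2A and 6689 in OP449, with a log2 fold of -0.17 [-0.23 to -0.12]. RPLP2, of the same stalk, stood at -0.13 [-0.20 to -0.06], with 3682 scaled counts in siNT and 4041 in PBS, and 3734 in siSET, 3936 in siCIP2A and 4045 in OP449.

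The highest were RPL41, at 0.20 [-0.25 to 0.66], RPS15, at 0.14 with an interval that reaches 0, and RPL38, at 0.10 [0.01 to 0.20]. RPS15, a small-subunit protein near the decoding site, had 923 scaled counts in siNT and 835 in PBS, and 813 in siSET, 869 in siCIP2A and 861 in OP449. RPL38, known in mice for translation of Hox mRNAs, had 2140 scaled counts in siNT and 1994 in PBS, and 2085 in siSET, 2233 in siCIP2A and 2105 in OP449. RPL13A, released from the ribosome in interferon-gamma treated monocytes, had 3285 scaled counts in siNT and 3507 in PBS, and 3628 in siSET, 3112 in siCIP2A and 3636 in OP449.

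The members not described so far are RPL4, RPL13, RPL18, RPL19, RPL23, RPL26, RPL27, RPL36, RPS9, RPS15A, RPS16 and RPS24. None of these 12 was past the 25% or 20% line in any of the 4 comparisons. RPL26, which binds the mRNA of p53, stood at 0.02 [-0.07 to 0.11] in siSET, -0.08 [-0.16 to 0.00] in siCIP2A and 0.07 [-0.01 to 0.14] in OP449. RPL23, another protein that binds MDM2, stood at 0.08 [0.00 to 0.15] in siSET, 0.03 [-0.04 to 0.10] in siCIP2A and 0.10 [0.03 to 0.17] in OP449. RPS24, mutated in some patients with Diamond-Blackfan anaemia, stood at 0.11 [0.04 to 0.18] in siSET, -0.02 [-0.09 to 0.04] in siCIP2A and 0.06 in OP449. RPL19, of the bridge between the subunits, stood at 0.12 [0.06 to 0.18] in siCIP2A and -0.17 [-0.22 to -0.11] for siNT against PBS.

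With PBS as the control for both, the median log2 fold of the members was -0.03 in siSET and -0.06 in siCIP2A. The share of the gene table's reads in the 42 members was 1.99% [1.98 to 2.01] in siSET, 1.97% [1.96 to 1.99] in siCIP2A and 1.96% [1.94 to 1.97] in siNT, all at 48 hours, and 2.11% [2.09 to 2.12] in OP449 and 2.07% [2.06 to 2.09] in PBS, both at 12 hours. The 3 siRNA libraries lay below the 2 others, with no overlap of the intervals. These intervals cover counting error only and are narrow. Those of OP449, from 2.093% up, and PBS, up to 2.086%, did not overlap either, nor did those of siSET and siNT. How far the share of other gene sets varies between libraries was not computed. Treatment and time both differ between the siRNA libraries and the others and cannot be told apart.

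Large and small subunit kept a nearly fixed proportion. Reads of the 25 large-subunit members exceeded those of the 17 small-subunit members by a ratio of 1.96 [1.93 to 1.99] in siSET, 2.01 [1.98 to 2.03] in siCIP2A, 1.99 [1.96 to 2.01] in siNT, 1.99 [1.97 to 2.02] in OP449 and 1.98 [1.96 to 2.01] in PBS. The interval of each treated library overlapped that of its control. The ratio depends on which members the table holds and is no measure of subunit numbers. It was not computed for other pairs of gene sets, so its steadiness stands without a background.

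**Figure D5:**
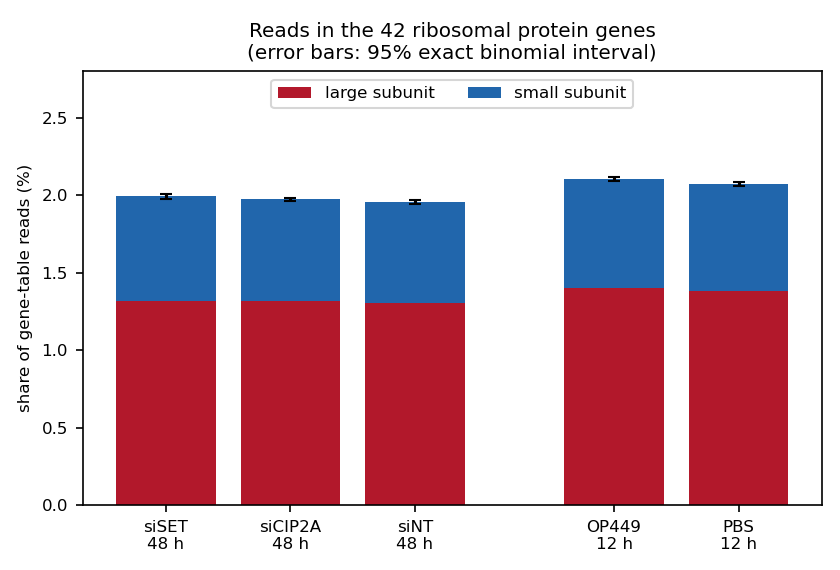
Share of the gene table's reads in the 42 members by library (%), split into large (red) and small (blue) subunit, with 95% exact binomial intervals of the total. The siRNA libraries at 48 hours stand between 1.96% and 1.99%, and the libraries at 12 hours at 2.11% and 2.07%.

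Other genes of translation were read from lists chosen by function. Of 17 translation factors and similar genes known or thought to carry TOP starts, 11 were higher and 6 lower in siSET, with a median of 0.03. Of all genes past the floor, 52.1% were higher in siSET. The median of the 17 was -0.02 in siCIP2A, -0.02 in OP449 and -0.06 for siNT against PBS. In that last comparison 12 of the 17 were lower, as were 51.0% of all genes past the floor. The 44 proteins of the mitochondrial ribosome had medians of 0.04 in siSET, -0.02 in siCIP2A, -0.04 in OP449 and -0.07 for siNT against PBS. Host genes of snoRNAs were not analysed here.

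Chaperones and partners of ribosomal proteins and assembly factors were mostly higher in OP449, where 10 of 11 exceeded PBS, as did 3275 of all 6096 genes past the floor. The median was 0.23, and 5 were at least 25% higher, where 9.92% of all genes were. RRP12, an export factor of the small subunit, had 1138 scaled counts in OP449 and 669 in PBS, a log2 fold of 0.77 [0.61 to 0.92]. PDCD2L, a partner of RPS2, had 201 in OP449 and 118 in PBS, at 0.76 [0.40 to 1.14]. The others were PNO1, an assembly factor of the small subunit, at 0.44 [0.23 to 0.66], HEATR3, an importer of RPL5, at 0.42 [0.14 to 0.71], and PRMT3, at 0.35 [0.16 to 0.54]. Against the same PBS library siNT stood at 0.73 [0.38 to 1.11] for PDCD2L, 0.25 [0.03 to 0.47] for PNO1, 0.21 [0.05 to 0.37] for RRP12, 0.23 [-0.06 to 0.52] for HEATR3 and -0.56 [-0.78 to -0.34] for PRMT3. PBS was thus the lowest library for PDCD2L and PNO1. RPS2 itself stood at -0.02 [-0.12 to 0.08] in OP449 and RPL5 at 0.04 [-0.02 to 0.09]. The medians of the list were -0.16 in siSET, -0.08 in siCIP2A and 0.07 for siNT against PBS.

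Among paralogues, RPS27L, a near relative of RPS27 and a known p53 target, had 741 scaled counts in siSET, 573 in siCIP2A, 270 in siNT, 472 in OP449 and 571 in PBS, so siNT was the lowest library. Its log2 fold was 1.45 in siSET and 1.08 in siCIP2A against siNT, -0.28 in OP449 and -1.08 for siNT against PBS. RPL3L and RPL10L, paralogues restricted to muscle and testis, had 0 reads in all 5 libraries. UBB, which encodes ubiquitin without a ribosomal partner, stood at 0.08 in siSET and -0.12 in siCIP2A against siNT, -0.11 in OP449 against PBS and -0.16 for siNT against PBS.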

How the data were processed

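Each value deposited by the authors is a signal per RefSeq transcript, read counts multiplied by a factor per library, per the file headers and values. In each library 100% of values were whole multiples of the smallest, within 0.001 reads, so reads were recovered. The submitters' processing notes name hg19, CASAVA and Bowtie 1.0.0, with no roles. The sources used here do not give the counting program, strand use, scaling method or read length. Samples were grouped by their labels. For siCIP2A the time came from the treatment protocol. The 42 members and the gene lists were chosen with earlier results of these data known. Symbols turned into dates in 15 rows were looked up by accession, and 14 were restored.

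Folds were computed on log2(value + 1), which understates low genes, over genes with a mean of at least 50 scaled counts in the pair of libraries. With 1 library per group there are no tests. Ratios have 95% exact Clopper-Pearson intervals, for counting error only, since reads carry no molecular identifiers. Any member could be named, and values in every library were given for the 3 highest and 3 lowest folds per comparison, the 3 highest and lowest levels per kilobase, and members with other roles. Windows were searched with BLAST+ 2.17.0 against GENCODE release 29, genes overlapping the member left out. Python 3.11.15, pandas 2.3.3 and SciPy 1.17.1 were used, and the fold calculation was tested on simulated counts. Alternatives were other scalings, floors, pseudocounts and folds, other ways of using transcript rows, and PBS as control. Chosen after seeing the data were subtraction of the median of other genes with coding sequences of up to 600 bases, members with a unique window only, and a floor of 1000. Some genes of the lists are not reported here.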

Additional observations from a re-analysis of the deposited data

How the results depend on the processing

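No paired analysis was possible because each group has 1 library, and for the same reason no replicate could be left out. Of 107 values recomputed for the medians, counts and shares, 24 moved past their tolerance: for a median the members' typical counting interval, 0.0875 either way in siSET, for a count 1.5 times, and for a share its binomial interval. At a fold of 1.1 the members higher and lower were 9 and 6 in siSET, 5 and 4 in siCIP2A, 4 and 2 in OP449, and 2 and 9 in siNT against PBS. Shares of all genes at a fold of 1.1 were not computed, so these counts stand without a background. At 1.5, 0 members were past the line in any comparison. In siSET the lower count was 1 with equal upper quartiles and 1 with a pseudocount of 10. In siCIP2A the higher count was 0 with the median of ratios, and both counts were 0 with a pseudocount of 10 and with PBS as control. With all transcript rows in the total, the shares were 1.87% in siSET, 1.83% in siCIP2A, 1.82% in siNT, 1.96% in OP449 and 1.91% in PBS, with the members' own further rows counted too. The medians of siSET, siCIP2A and OP449 lie so near 0 that their sign depends on the setting: they ranged between -0.03 and 0.07 in siSET, between -0.06 and 0.01 in siCIP2A and between -0.005 and 0.07 in OP449. For siNT against PBS the median was below 0 under every alternative run, between -0.10 and -0.06. With PBS as control, 38 of 78 single folds of siSET and siCIP2A moved, and the cause was not tested. RPL41, RPS28 and RPS26 have under 200 reads in each library, which limits their folds to wide intervals. Genes outside the table were not analysed here.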

Other observations

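Several members have more than 1 transcript row in the table, and the 42 members have 65 rows in all. The 5 rows of RPL28 gave log2 folds of OP449 over PBS between 0.21 and 0.26, and RPS24 had 6 rows with 2 distinct sets of values. RPS29 has a longer isoform 2, whose level was 34.4% of isoform 1 in siSET, 26.4% in siCIP2A, 32.7% in siNT, 27.4% in OP449 and 32.0% in PBS. RPL17 has a second row at 71.8% of the first in siSET, 68.1% in siCIP2A, 71.5% in siNT, 65.7% in OP449 and 70.4% in PBS. Rows of a gene share reads.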
